A study of Homo sapiens with 18 samples.

Results

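The 39 genes described here were named as a module of glycolysis and hypoxia genes, and 38 of them were found by symbol in each of 3 deposited tables, which list 25673 entries for RKO, 19909 for COLO 201 and 19977 for H1975. One name, VLDLR2, matched no entry. The genes fall into 24 of glucose use (2 glucose transporters, 17 glycolytic enzymes, 3 flux regulators and 2 lactate transporters) and 14 of the hypoxia response (3 oxygen-sensing genes and 11 other targets of hypoxia-inducible factor, HIF).

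Glycolysis turns glucose into pyruvate in the cytosol, and lactate dehydrogenase then reduces pyruvate to lactate, which leaves the cell through monocarboxylate transporters. When oxygen is short, HIF1A is no longer hydroxylated by the prolyl hydroxylases (EGLN genes), accumulates as a protein, and raises transcription of most glycolytic genes together with genes for pH control, matrix hydroxylation and mitophagy. Many cancer cells run glycolysis even with oxygen, and MYC drives several of the same enzymes.

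The study sequenced polyadenylated RNA of 3 human cancer cell lines, RKO and COLO 201 from colon and H1975 from lung, in which doxycycline switches on a hairpin that targets the mucin gene MUC1. All carry a puromycin resistance marker and the same hairpin construct, and per the labels' protocols they were grown in triplicate with 500 ng/ml doxycycline or with 0.1% DMSO as vehicle. The time of exposure and the oxygen level are not given in the sources used here. Each line has 3 vehicle and 3 doxycycline columns of TPM, a length-corrected abundance that sums to 1000000 in every column. The arm comes from the column headings, because all sample labels name the same agent. In RKO the heading that was read as vehicle carries no sign. Nothing ties the columns to separately derived cultures beyond the word triplicate, so p-values measure the spread between these columns. What the hairpin did and what doxycycline alone did cannot be told apart.

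MUC1 (chr1:155185824-155192916, minus strand, GRCh38) was lower with doxycycline in every line. In COLO 201 it read 13.2, 15 and 13.6 TPM with vehicle and 2.03, 1.78 and 1.53 TPM with doxycycline. In H1975 it read 101, 86.2 and 105 TPM against 7.05, 9.56 and 7.44 TPM. In RKO it read 15.2, 1.24 and 1.03 TPM against 0.108, 0.105 and 0.204 TPM, so that the first vehicle column lies far above the other 2. That column stands apart in other genes too. Its 18 fibroblast and endothelial markers summed to 250.6 TPM with 3 of them at 0, against 0.853 to 1.56 TPM and 12 or 13 at 0 in the other 5 columns, and VIM was at 361 TPM against at most 2.46 TPM. RKO counts of called members and the values of some members are therefore also given without vehicle column 1. Other RKO values include it. In such bulk columns fewer cells of a type and less RNA per cell cannot be told apart. Epithelial markers were well represented in COLO 201 (12 genes summing to 7700.2 to 8014 TPM) and H1975 (2522 to 2919 TPM), but summed to only 30.1 to 71.4 TPM in RKO, with 5 to 7 of the 12 at 0. Small noncoding RNAs took 67.5% to 78.5% of TPM in RKO. The median change of all tested genes on the log2 scale was -0.26 for RKO, 0.12 for COLO 201 and 0.06 for H1975, so RKO and COLO 201 values are also given after rescaling each column by the median ratio. Of 12 leukocyte and erythroid markers, PTPRC, MS4A1 and HBB reached at most 0.07 TPM in any column, but the 12 summed to 121 to 262 TPM with vehicle and 392 to 489 TPM with doxycycline in RKO, and to 161 to 170 TPM and 279.4 to 331 TPM in H1975. Nearly all of this was CD68, a lysosomal protein used as a macrophage marker, which was called higher in RKO (1.21), COLO 201 (0.70) and H1975 (0.92). In COLO 201 the sum was 1288 to 1295 TPM with vehicle and 693 to 743 TPM with doxycycline, most of it LYZ. The part of these genes in the results was not tested.

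Promoters of 4 members are shown because LDHA and PGAM1 moved one way in every line, HK2 moved the other way where called, and CA9 had the largest change among the HIF targets of H1975. Windows are from RefSeq (GRCh38.p14), each 250 bases ending just before a transcription start, on the plus strand. Capitals mark ACGTG or GCGTG, the core letters of the hypoxia response element, on either strand, so the opposite strand reads as CACGT or CACGC. LDHA has 2 annotated starts with windows chr11:18394313-18394562 and chr11:18396101-18396350.

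LDHA first start: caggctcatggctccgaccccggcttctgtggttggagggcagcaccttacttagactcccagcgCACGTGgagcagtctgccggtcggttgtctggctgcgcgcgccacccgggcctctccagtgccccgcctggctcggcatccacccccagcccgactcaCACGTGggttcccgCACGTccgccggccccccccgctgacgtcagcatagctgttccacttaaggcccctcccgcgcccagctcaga
LDHA second start: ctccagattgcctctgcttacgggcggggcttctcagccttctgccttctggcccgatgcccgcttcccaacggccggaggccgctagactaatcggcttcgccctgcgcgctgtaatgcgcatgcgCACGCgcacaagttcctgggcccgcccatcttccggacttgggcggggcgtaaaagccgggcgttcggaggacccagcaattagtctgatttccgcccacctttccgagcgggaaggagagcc

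PGAM1 (window chr10:97427568-97427817) has neither word. That window lies inside the GENCODE span of the gene, which begins at chr10:97426160, and bases before that position were not searched. Of the 2 annotated HK2 starts, the second (window chr2:74834920-74835169, printed here) has 6 matches. Of these, 4 are ACGTG read from CACGTG palindromes on both strands. The first HK2 start (window chr2:74833877-74834126) has 3 matches and is not printed. CA9 (window chr9:35673678-35673927) has 1 match, which begins 18 bases before the start.

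PGAM1: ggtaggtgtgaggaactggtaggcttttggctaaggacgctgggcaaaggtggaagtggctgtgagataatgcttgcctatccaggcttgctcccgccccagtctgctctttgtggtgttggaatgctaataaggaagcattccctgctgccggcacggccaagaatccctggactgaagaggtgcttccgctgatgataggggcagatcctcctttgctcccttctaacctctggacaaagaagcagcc
HK2: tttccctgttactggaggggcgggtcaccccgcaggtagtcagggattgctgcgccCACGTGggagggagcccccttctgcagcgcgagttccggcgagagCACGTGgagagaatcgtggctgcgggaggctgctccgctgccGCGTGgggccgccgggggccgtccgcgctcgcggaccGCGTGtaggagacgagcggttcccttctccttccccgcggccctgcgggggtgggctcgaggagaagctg
CA9: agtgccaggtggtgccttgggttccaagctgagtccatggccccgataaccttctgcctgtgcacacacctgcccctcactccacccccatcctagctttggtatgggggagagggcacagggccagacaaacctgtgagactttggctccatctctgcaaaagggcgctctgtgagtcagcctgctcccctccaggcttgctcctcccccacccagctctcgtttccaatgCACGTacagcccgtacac

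The first LDHA window holds 5 matches, 4 of them from a pair of CACGTG palindromes, which read ACGTG on both strands and are counted on each. CACGTG is also the E-box that MYC family proteins recognise. Of the 38 members, 34 had a window in the RefSeq table, with 62 windows in all. Over the full 300 bases, which run 50 bases past the start, 67.7% of the 62 windows held either word, against 48.4% of all 35116 windows. For ACGTG alone the shares were 38.7% and 21.4%, and for GCGTG 40.3% and 36.5%. EGLN3, P4HA2 and PGAM1 held neither word in any window, and the only PGAM1 window lies inside the GENCODE span of the gene. A match is a description of letters and not of a binding site.

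PGAM1, phosphoglycerate mutase, which moves the phosphate of 3-phosphoglycerate, and LDHA, the muscle-type lactate dehydrogenase subunit, were the only members called lower in all 3 lines, where called means an adjusted p under 0.05 in limma over all genes tested. PGAM1 lies at chr10:97426160-97433441 and LDHA at chr11:18394388-18408425, both on the plus strand of GRCh38. In RKO, PGAM1 read 44.9, 46.9 and 41.4 TPM with vehicle and 9.47, 13.8 and 12.4 TPM with doxycycline, a change of -1.83 ± 0.21 on the log2(TPM + 1) scale (SE, n = 3 a group, limma adjusted p = 1.28e-06). In COLO 201 it read 149, 163 and 164 TPM against 93.3, 84.4 and 92.9 TPM (-0.81 ± 0.05, adjusted p = 7.74e-08). In H1975 it read 187, 195 and 199 TPM against 89.0, 87.6 and 91.2 TPM (-1.11 ± 0.06, adjusted p = 2.35e-08). Every doxycycline column was below every vehicle column in each line, and the H1975 doxycycline columns lay within a few TPM of one another.

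LDHA read 234, 198 and 164 TPM in the RKO vehicle columns and 57.2, 80.0 and 62.0 TPM with doxycycline (-1.57 ± 0.23, adjusted p = 2.62e-05). COLO 201 gave 820, 859 and 865 TPM against 530, 525 and 514 TPM (-0.70 ± 0.04, adjusted p = 3.48e-08). H1975 gave 806, 887 and 840 TPM against 462, 454 and 499 TPM (-0.84 ± 0.06, adjusted p = 4.79e-07). Again the arms did not overlap in any line. Without vehicle column 1 and rescaled, the RKO changes were -1.52 for PGAM1 and -1.12 for LDHA, and both remained called with any single column left out. With no minimum TPM, only 1 glucose gene was called lower in RKO, so PGAM1 and LDHA were not both called there. In that fit 16 of all 18329 genes were called lower. PGAM1 has 13 named pseudogenes and LDHA 6 in GENCODE, and how shared reads were assigned is not given in the sources used here. PGAM4, an intronless copy of PGAM1, was listed at 1.66 to 1.83 TPM with vehicle and 0.330 to 0.602 TPM with doxycycline in H1975, so it was low but lay on the same side. Named pseudogenes exist for 16 of the 38 members, and 24 are overlapped by a gene on the other strand. The library kit keeps strand, but whether counting used it is not given in the sources used here.

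**Figure D1:**
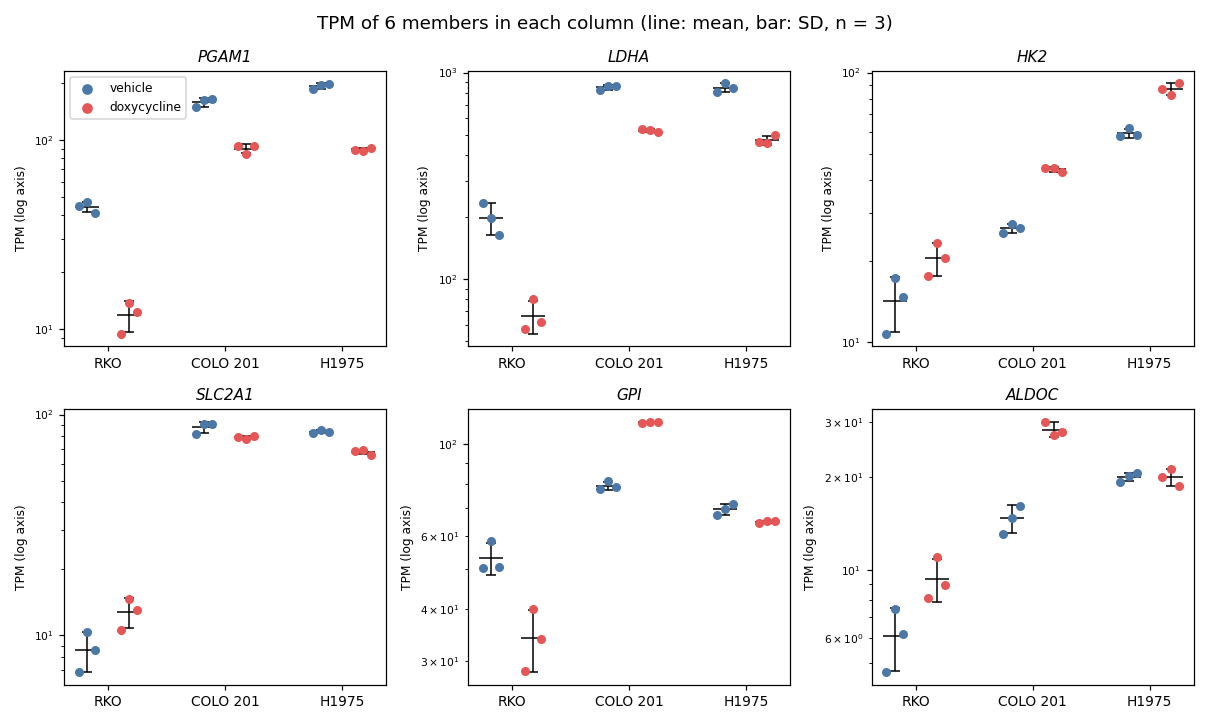
TPM on a log axis for PGAM1, LDHA, HK2, SLC2A1, GPI and ALDOC in each column, by line, with vehicle in blue and doxycycline in red; lines and bars are the mean and SD of 3 columns. PGAM1 and LDHA are lower and HK2 higher with doxycycline in each line, with no overlap of the arms, while GPI is higher in COLO 201 and lower in RKO. Tables were normalised separately, so levels are not compared between lines.

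HK2, a hexokinase isoform that is raised in many tumours, lay higher with doxycycline in each line. COLO 201 read 25.3, 27.4 and 26.4 TPM with vehicle and 44.1, 44.2 and 42.6 TPM with doxycycline (0.71 ± 0.05, adjusted p = 9.16e-08). H1975 read 58.0, 62.1 and 58.5 TPM against 86.6, 82.7 and 91.2 TPM (0.54 ± 0.07, adjusted p = 3.94e-05). RKO read 10.7, 17.2 and 14.6 TPM against 17.5, 23.3 and 20.5 TPM, with no overlap but a narrow gap, and the change of 0.51 missed the threshold (adjusted p = 0.089). After rescaling it was 0.80 (adjusted p = 0.0085), and 0.64 rescaled with vehicle column 1 left out (adjusted p = 1.55e-06). As deposited without that column it was 0.34 and not called (adjusted p = 0.30). HK2 thus lay higher and LDHA lower in each line, although HK2 in RKO was called only after rescaling.

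Across the 24 glucose genes the lines differed in the share called. In COLO 201, 15 of the 22 tested rose and 4 fell, beside 45.9% of all 11566 tested genes called higher and 15% called lower. Rescaled, 11 rose and 4 fell, beside 27.3% and 29.7%. The 22 members had a median change of 0.28 against 0.12 for all genes. In H1975, 5 of 24 rose and 8 fell, beside 23.9% and 14.6% of 12359 genes, or 5 and 10 after rescaling, beside 21.2% and 18.5%, with a median of -0.08 against 0.06. In RKO, 2 of 24 rose (SLC2A3 and ALDOC) and 7 fell, beside 2.09% and 16.1% of 10551 genes, and the median change was -0.26, as for all genes. All 7 that fell were among the 17 enzymes, whose own median was -0.54. The enzyme median was -0.24 rescaled, against -0.0045 for all genes. With vehicle column 1 also left out it was -0.25, against 0.0028. Apart from PGAM1 and LDHA, each of these RKO calls was lost when some single column was left out, with adjusted p up to 0.20. SLC2A3 lost its call without vehicle column 3 or doxycycline column 3, and ENO1 without vehicle column 1 or doxycycline columns 1 or 3. GPI and PFKL lost theirs without vehicle columns 2 or 3 or doxycycline columns 1 or 3, and GAPDH and PKM without any single column but doxycycline column 2. ALDOC lost its call without any single column but vehicle column 2. RKO counts also moved with the scaling. Rescaled they were 5 higher and 7 lower, beside 13.8% and 14%, and with vehicle column 1 also left out they were 9 and 10, beside 29.1% and 29.8%.

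**Figure D2:**
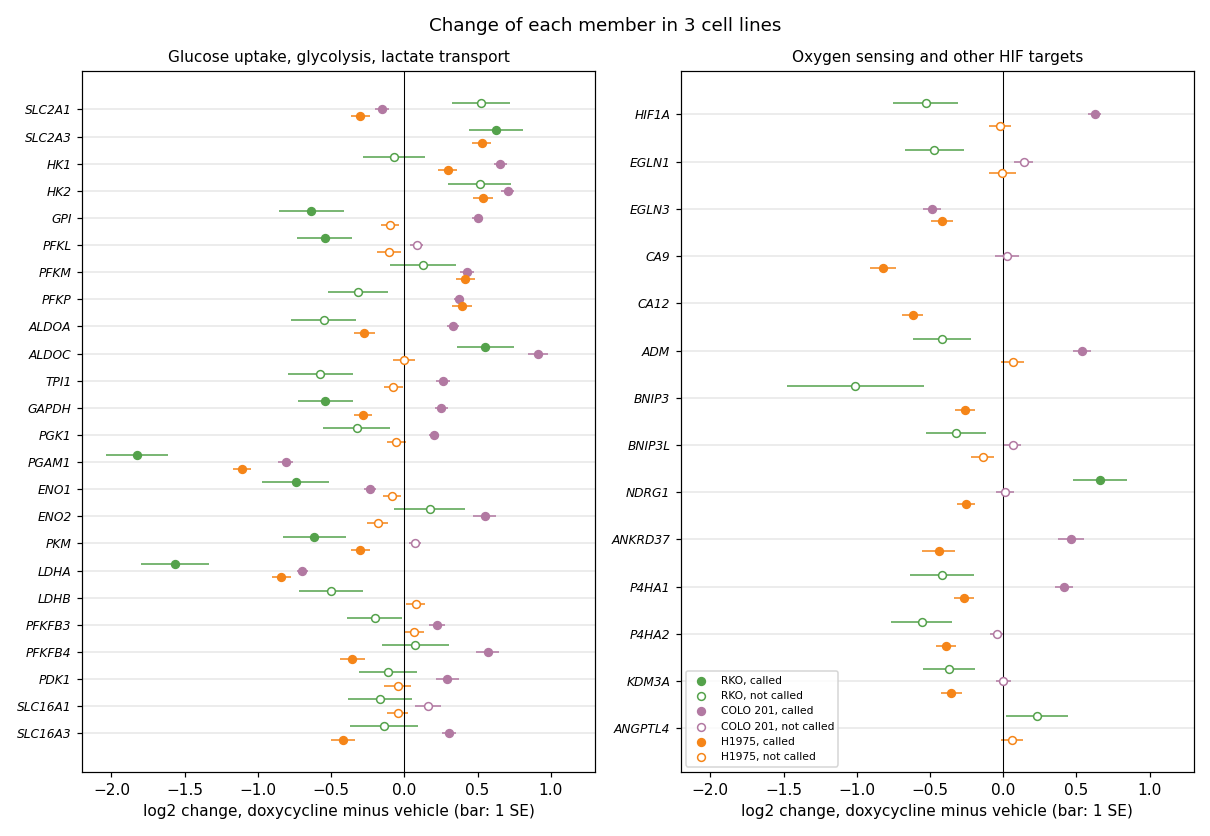
Change of each member, doxycycline minus vehicle, on the log2(TPM + 1) scale in RKO (green), COLO 201 (purple) and H1975 (orange); bars are 1 SE, filled points are called, and untested members have no point. PGAM1 and LDHA lie left of 0 in every line, most COLO 201 enzymes lie right of 0, and 9 of the 14 HIF members of H1975 are called on the left.

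At the entry step, the glucose transporters SLC2A1 (GLUT1) and SLC2A3 (GLUT3, a high-affinity carrier) were called in opposite directions in H1975, while in RKO both lay higher with doxycycline. SLC2A3 rose in H1975 from 86.0, 91.7 and 88.6 TPM to 123, 130 and 132 TPM (0.53 ± 0.06, adjusted p = 2.95e-05) and in RKO from 6.4, 5.57 and 4.53 TPM to 7.92, 9.73 and 9.26 TPM (0.62 ± 0.18, adjusted p = 0.018). In COLO 201 SLC2A3 was at most 0.0443 TPM. SLC2A1 fell in H1975 from 82.3, 84.7 and 83.6 TPM to 68.3, 68.9 and 65.9 TPM (-0.30 ± 0.06, adjusted p = 0.0022) and in COLO 201 from 81.4, 90.9 and 90.5 TPM to 79.0, 77.2 and 80.2 TPM (-0.15, adjusted p = 0.016). The arms did not overlap in either line, but in COLO 201 the gap was about 1 TPM and the call was lost without vehicle column 2 or 3 (adjusted p = 0.072 and 0.066). In RKO SLC2A1 lay the other way, at 6.84, 10.4 and 8.64 TPM against 10.6, 14.6 and 13.1 TPM (0.52, adjusted p = 0.066). Rescaled, that change was 0.80 and was called (adjusted p = 0.0044). Without vehicle column 1 it was 0.38 as deposited and not called (adjusted p = 0.23), and 0.67 rescaled (adjusted p = 1.38e-06).

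HK1, the constitutive hexokinase, rose in COLO 201 from 26.4, 27.9 and 27.6 TPM to 43.3, 42.6 and 44.7 TPM (0.66 ± 0.04, adjusted p = 1.32e-07) and in H1975 by 0.30 (adjusted p = 0.0025). In RKO it was at -0.07 and not called, but at 0.22 and called after rescaling (adjusted p = 0.042). GPI, which isomerises glucose 6-phosphate, rose in COLO 201 from 78, 81.4 and 78.9 TPM to 112, 113 and 113 TPM (0.50 ± 0.04, adjusted p = 3.1e-07). It fell in RKO from 50.4, 58.5 and 50.5 TPM to 28.3, 40.0 and 33.9 TPM (-0.64 ± 0.22, adjusted p = 0.044; -0.34 rescaled, adjusted p = 0.0071). In H1975 it was not called (-0.10). GPI and GAPDH were the 2 members called in opposite directions in COLO 201 and RKO at the deposited scale. Rescaled, the members called in opposite directions were SLC2A1, GPI and ALDOA. Rescaling ended the GAPDH call in RKO (-0.24, adjusted p = 0.072) and in COLO 201 (0.12, adjusted p = 0.12).

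The phosphofructokinases, which commit the sugar to glycolysis, came in 3 isoforms. PFKM rose in COLO 201 by 0.43 and in H1975 from 52.5, 52.4 and 55.7 TPM to 71.6, 71.7 and 72.2 TPM (0.42 ± 0.06, adjusted p = 0.00021). PFKP, the platelet isoform, rose by 0.37 in COLO 201 and in H1975 from 99.5, 103 and 110 TPM to 129, 144 and 137 TPM (0.39 ± 0.07, adjusted p = 0.00058). PFKL, the liver isoform, was not called in either line (0.09 and -0.11) and fell by 0.54 in RKO (adjusted p = 0.045). Thus the muscle and platelet isoforms rose and the liver isoform did not pass in both COLO 201 and H1975.

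ALDOC, the brain aldolase, rose in COLO 201 from 13.1, 14.7 and 16.1 TPM to 30.2, 27.2 and 27.9 TPM (0.91 ± 0.07, adjusted p = 3.57e-07), and this was the largest rise of any member there. It rose in RKO by 0.55 (adjusted p = 0.045) and read 19.2, 20.1 and 20.5 TPM against 19.9, 21.2 and 18.7 TPM in H1975, where the arms overlapped. ALDOA, the main aldolase, rose in COLO 201 by 0.33 and fell in H1975 by 0.27, both called. TPI1, GAPDH and PGK1, the next steps down, rose in COLO 201 by 0.26, 0.25 and 0.20. None of these 3 remained called there after rescaling. In H1975 GAPDH, the most abundant member, fell from 2289, 2245 and 2451 TPM to 1903, 1989 and 1850 TPM (-0.28, adjusted p = 0.003), while TPI1 (-0.07) and PGK1 (-0.05) were not called.

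ENO1, the main enolase, fell in RKO from 414, 326 and 280 TPM to 170, 241 and 196 TPM (-0.74 ± 0.23, adjusted p = 0.023) and in COLO 201 from 1176, 1216 and 1209 TPM to 1033, 991 and 1032 TPM (-0.24 ± 0.04, adjusted p = 0.0003). The RKO value depended on the scaling, at -0.44 rescaled (adjusted p = 0.079) and -0.27 rescaled without vehicle column 1 (adjusted p = 0.0019). As deposited without that column it was -0.59 and not called (adjusted p = 0.059). In H1975 ENO1 was not called (-0.08). ENO2, the neuronal enolase, rose by 0.55 in COLO 201 and was not called in H1975 (-0.18). PKM, pyruvate kinase, fell in RKO from 466, 486 and 411 TPM to 253, 334 and 304 TPM (-0.62 ± 0.22, adjusted p = 0.045) and in H1975 by 0.30 (adjusted p = 0.0032), and was not called in COLO 201 (0.07). Transcripts of its M1 and M2 splice forms are summed in these tables. LDHB, the heart-type subunit, was not called in H1975 (0.08) or RKO (-0.50, adjusted p = 0.11) and was at most 0.0424 TPM in COLO 201. Other RKO enzymes without a call were PFKM, PFKP, ALDOA, TPI1, PGK1 and ENO2, at changes of -0.57 to 0.17, of which ALDOA (-0.25) and TPI1 (-0.27) passed after rescaling.

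The summed TPM of the 17 enzymes took 0.784% to 0.844% of the H1975 total with vehicle and 0.683% to 0.713% with doxycycline. In COLO 201 it took 0.591% to 0.615% and 0.592% to 0.624%, with overlapping arms. The RKO ranges were 0.344% to 0.407% and 0.219% to 0.290%. GAPDH, ENO1, PKM and LDHA make up most of these sums.

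Among the flux regulators and lactate carriers, PFKFB4 and SLC16A3 changed in opposite directions in COLO 201 and H1975. PFKFB4, a bifunctional enzyme that sets fructose 2,6-bisphosphate, rose in COLO 201 from 1.32, 1.39 and 1.48 TPM to 2.71, 2.31 and 2.65 TPM (0.57, adjusted p = 4.8e-05) and fell in H1975 from 8.71, 8.74 and 9.83 TPM to 7.23, 7.17 and 6.28 TPM (-0.36, adjusted p = 0.0046). SLC16A3 (MCT4, a lactate exporter that HIF induces) rose in COLO 201 from 35.9, 38.1 and 38.9 TPM to 44.0, 47.1 and 49.1 TPM (0.30, adjusted p = 0.00022) and fell in H1975 from 27.6, 25 and 29.7 TPM to 19.4, 21.9 and 19.4 TPM (-0.42, adjusted p = 0.0013). In neither gene did the arms overlap. SLC16A1 (MCT1) was not called in any line, at 0.16 in COLO 201, -0.05 in H1975 and -0.17 in RKO. PFKFB3 and PDK1, the kinase that holds back pyruvate dehydrogenase, rose in COLO 201 by 0.22 (lost on rescaling, adjusted p = 0.079) and 0.29, and were not called in H1975 (0.07 and -0.05) or RKO (-0.20 and -0.11).

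Shares of isoforms within a family do not depend on how a column was scaled. Of 41 shares in 12 families over the 3 lines, the arms did not overlap in 28. Each of those has an exact two-sided permutation p of 0.1, the smallest that 3 columns against 3 allow, and 0.15 after Benjamini-Hochberg adjustment over the 41. The same count was not made for families outside the module, so the 28 have no background to be read beside. Shares of a family add up to the whole, so those of the phosphofructokinases are not independent. In H1975 LDHB made up 44.2%, 43.2% and 45.0% of LDHA plus LDHB with vehicle and 59.4%, 60.4% and 59.9% with doxycycline, so the heart-type subunit went from the smaller to the larger part. RKO gave 64.4%, 74.4% and 73.8% against 83.5%, 83.7% and 84.3%, with vehicle column 1 the lowest. SLC2A3 went from 51.1%, 52.0% and 51.5% of the GLUT1 and GLUT3 sum to 64.4%, 65.4% and 66.7% in H1975.

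Only 4 shares lay on one side in all 3 lines, and the PFKL and PFKM shares among them belong to the same family. PFKL was a smaller share of the phosphofructokinases, at 20.4% ± 1.0 with vehicle and 15% ± 0.9 with doxycycline in RKO (SD, n = 3), 24.6% ± 0.6 and 21.0% ± 0.1 in COLO 201, and 19.2% ± 0.6 and 14.3% ± 1.0 in H1975. PFKM took a larger share in each line. ALDOC took a larger share of the aldolases, at 3.32% ± 0.57 against 7.16% ± 0.24 in RKO, 4.79% ± 0.28 against 7.19% ± 0.35 for COLO 201, and 3.34% ± 0.17 against 4.00% ± 0.03 for H1975. P4HA2 was a smaller share of the 2 prolyl 4-hydroxylase subunits, by 3.00 points in RKO, 7.79 in COLO 201 and 1.40 in H1975. Its largest shift was in COLO 201, where P4HA1 rose and P4HA2 was not called.

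**Figure D3:**
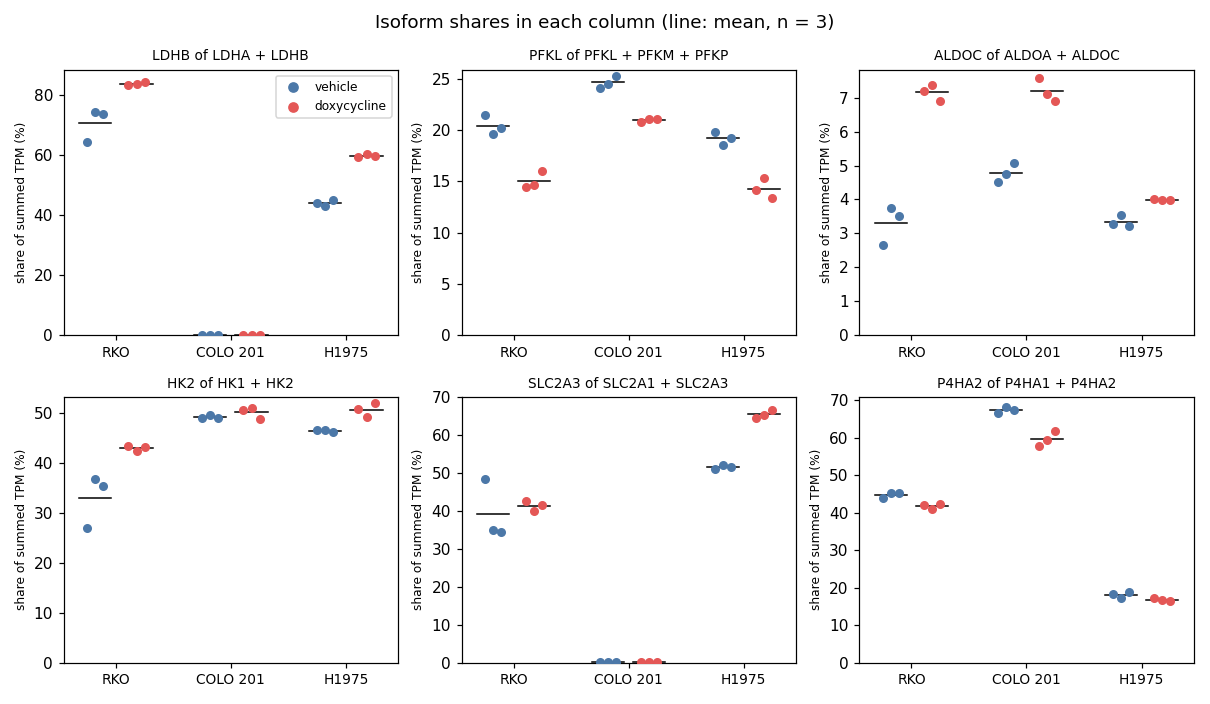
Share of one isoform in the summed TPM of its family, in percent, for each column by line, with vehicle in blue, doxycycline in red and a line at the mean. LDHB rises from 44.1% to 59.9% on average in H1975 and from 70.9% to 83.8% in RKO and is absent in COLO 201; PFKL and P4HA2 are lower and ALDOC higher with doxycycline in all 3 lines.

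Among the 14 hypoxia genes, H1975 had the most calls, all of them lower. There 9 of 14 fell and 0 rose, beside 14.6% of all genes lower and 23.9% higher. At an unadjusted limma p under 0.05 none was higher either, where 5957 of 12359 genes passed in either direction. The median change of the 14 was -0.26 against 0.06 for all genes. By comparison 5 of the 17 glycolytic enzymes fell and 4 rose in the same columns, with a median of -0.08. With small noncoding and mitochondrial genes removed, 8 enzymes fell and 4 rose, and 9 hypoxia genes fell and 0 rose. In that setting 19.2% of all genes were lower and 17.8% higher. In COLO 201, 4 of 11 tested rose and 1 fell, beside 45.9% and 15% of all genes, with a median of 0.06 against 0.12. After rescaling 4 rose and 3 fell, beside 27.3% and 29.7%. RKO had 1 of 10 higher and 0 lower in limma, beside 2.09% and 16.1%. Rescaled there were 2 and 0, beside 13.8% and 14%, and with vehicle column 1 left out as well 4 of 9 were higher, beside 29.1%. As deposited, 1 was higher and 6 were lower at an unadjusted limma p under 0.05, beside 3608 of 10551 genes in either direction. The 6 include BNIP3, which reached the minimum TPM only through vehicle column 1. They also include HIF1A, EGLN1, P4HA2 and ADM, each highest in that column.

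CA9, the carbonic anhydrase used as a marker of tumour hypoxia, fell in H1975 from 8.35, 7.62 and 8.37 TPM to 4.23, 3.71 and 4.58 TPM (-0.82 ± 0.09, adjusted p = 9.16e-06). CA12, a second surface carbonic anhydrase, fell from 13.6, 14.4 and 13.7 TPM to 8.52, 9.26 and 8.34 TPM (-0.62 ± 0.07, adjusted p = 2.79e-05). In both genes no doxycycline column reached a vehicle column. In COLO 201 CA9 was at 10.4 to 13.1 TPM in all columns with overlapping arms (0.03, adjusted p = 0.81). CA12 was under 1 TPM in COLO 201, and CA9 was at 0 in 5 of the 6 RKO columns.

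Collagen prolyl hydroxylases, which HIF induces and which stabilise the collagen helix, fell in H1975. P4HA1 went from 95.3, 103 and 97.1 TPM to 80.9, 79.0 and 85.1 TPM (-0.27 ± 0.07, adjusted p = 0.0059). P4HA2 went from 21.4, 21.6 and 22.4 TPM to 16.7, 16 and 16.6 TPM (-0.39 ± 0.07, adjusted p = 0.00062). The histone demethylase KDM3A fell from 34.7, 37.6 and 36.9 TPM to 27.1, 27.6 and 30.1 TPM (-0.35 ± 0.07, adjusted p = 0.0017). NDRG1, a stress-responsive gene, fell by 0.25 (adjusted p = 0.0061), ANKRD37 by 0.44 (adjusted p = 0.0068) and the mitophagy receptor BNIP3 by 0.26 (adjusted p = 0.01). The BNIP3 call was lost without vehicle column 3 (adjusted p = 0.052). ADM (0.06), ANGPTL4 (0.06) and BNIP3L (-0.14) were not called.

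The mRNA of HIF1A itself did not pass in H1975, at 412, 489 and 447 TPM with vehicle and 427, 426 and 475 TPM with doxycycline (-0.02 ± 0.07, adjusted p = 0.86). EGLN1, the main oxygen-sensing hydroxylase, did not pass either (0.00, adjusted p = 0.97). EGLN3, a hydroxylase that is itself a HIF target, fell from 10.5, 10.5 and 10.1 TPM to 7.29, 7.51 and 7.73 TPM (-0.42 ± 0.07, adjusted p = 0.00059). In the same columns 18 fibroblast and endothelial markers, led by COL1A1, summed to 69.2 to 73.2 TPM with vehicle and 36.3 to 40.8 TPM with doxycycline, and their part in these values was not tested.

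In COLO 201 HIF1A rose from 56.7, 54.9 and 53.9 TPM to 89.8, 85.9 and 81.5 TPM (0.63 ± 0.04, adjusted p = 2.28e-07). ADM, a vasodilator peptide, rose from 20.5, 24 and 24.5 TPM to 34.5, 33.1 and 33.7 TPM (0.54 ± 0.06, adjusted p = 1.13e-05). P4HA1 rose from 13.7, 13.6 and 13.7 TPM to 20.2, 18.6 and 16.8 TPM (0.41 ± 0.06, adjusted p = 0.00011), and ANKRD37 from 1.07, 1.25 and 1.55 TPM to 2.16, 2.16 and 2.12 TPM (0.46 ± 0.09, adjusted p = 0.00058). These 4 genes had no overlap between arms. EGLN3 went the other way, from 23.4, 24.8 and 27.5 TPM to 18.3, 17.8 and 17 TPM (-0.48 ± 0.06, adjusted p = 2.4e-05), as in H1975. EGLN1 read 8.59, 9.46 and 8.98 TPM against 9.95, 10.9 and 9.25 TPM with overlapping arms (0.14, adjusted p = 0.086). NDRG1, BNIP3L, KDM3A and P4HA2 were not called at the deposited scale, between -0.04 and 0.06, and BNIP3 and ANGPTL4 were near 0 in every column. Of the 12 leukocyte and erythroid markers, 4 were tested here and 2 fell and 2 rose in the same columns. LYZ, a myeloid marker, read 1217 to 1221 TPM with vehicle and 592 to 624 TPM with doxycycline, and HBA2 fell by 2.33 on the log2 scale. CD68 rose by 0.70 (adjusted p = 4.9e-07) and CD14 by 0.53 (adjusted p = 0.00026). Their part was not tested.

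**Figure D4:**
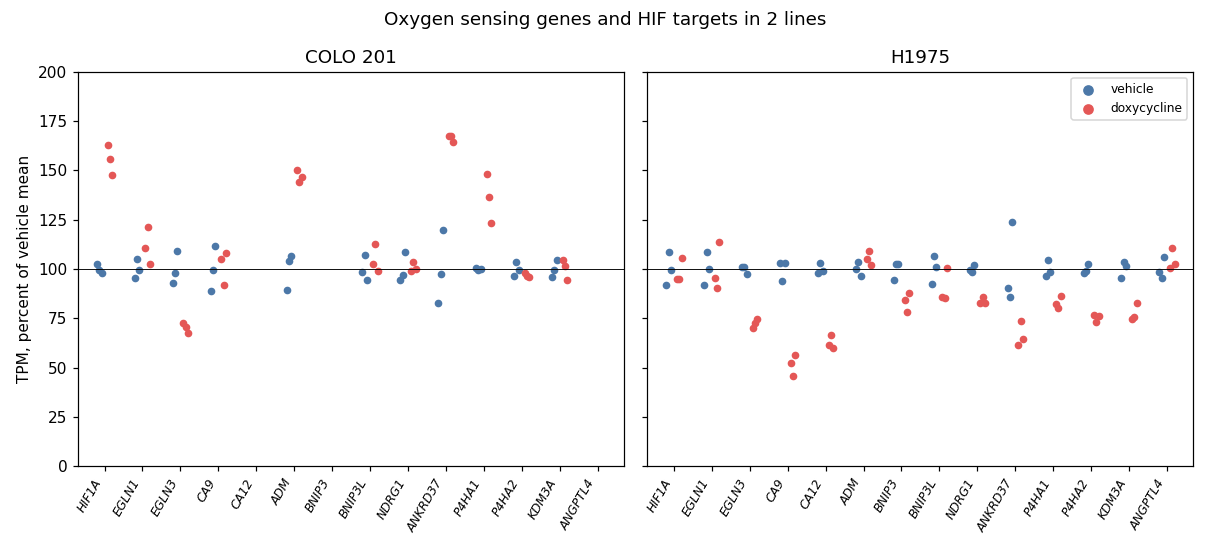
TPM of the 14 oxygen-sensing genes and HIF targets as a percent of the vehicle mean, in COLO 201 (left) and H1975 (right), for each vehicle (blue) and doxycycline (red) column; members not tested in COLO 201 are blank. In H1975 CA9, CA12, EGLN3 and P4HA2 sit below the vehicle columns, while HIF1A, ADM, ANKRD37 and P4HA1 sit above them in COLO 201.

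NDRG1 rose in RKO from 4.73, 5.67 and 5.10 TPM to 7.43, 10.4 and 8.55 TPM (0.66 ± 0.18, adjusted p = 0.012), and by 0.88 without vehicle column 1 and rescaled. The call was lost with doxycycline column 3 left out (adjusted p = 0.075). HIF1A read 28.6, 18.9 and 16 TPM against 11.8, 17.2 and 13.3 TPM (-0.53, adjusted p = 0.094), and EGLN1 read 8.29, 5.32 and 4.47 TPM against 3.20, 4.8 and 3.96 TPM (-0.47, adjusted p = 0.096). P4HA2 read 11.8, 7.30 and 5.95 TPM against 4.29, 6.23 and 5.08 TPM (-0.56, adjusted p = 0.059), and ADM read 7.47, 4.54 and 4.54 TPM against 2.81, 4.08 and 4.62 TPM (-0.42, adjusted p = 0.14). Vehicle column 1 was the highest in all 4 of these genes and the arms overlapped. Without it and rescaled, their changes lay between -0.03 and 0.04. BNIP3 was at 7.14 TPM in vehicle column 1 and at 0 in the other 5 columns. KDM3A (-0.37, adjusted p = 0.14) did not pass and ANGPTL4 (0.23) passed only rescaled (0.51, adjusted p = 0.017). EGLN3, CA9, CA12 and ANKRD37 were too low to test.

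**Figure D5:**
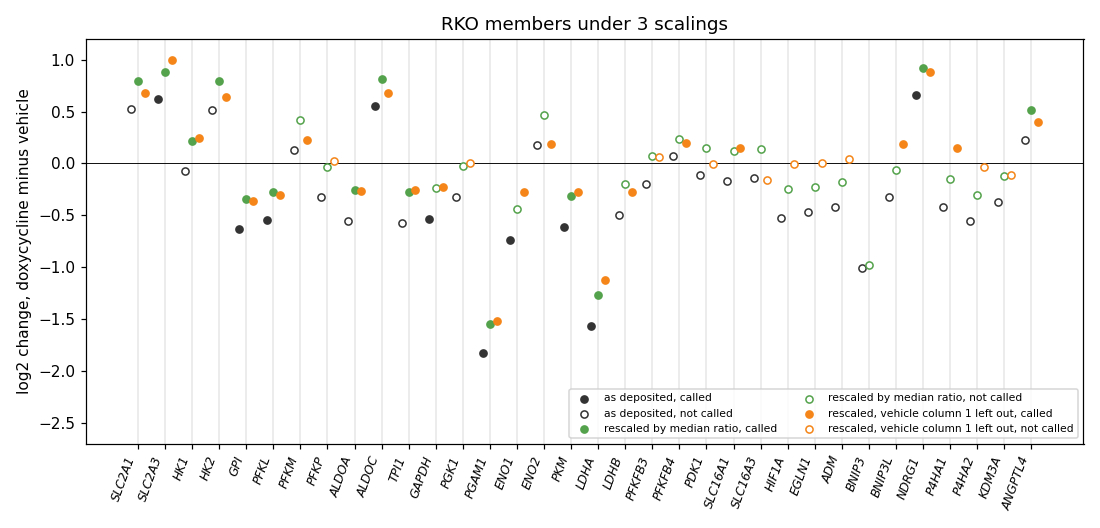
Change of each tested member in RKO on the log2 scale as deposited (black), rescaled by the median ratio (green), and rescaled without vehicle column 1 (orange); filled points are called. PGAM1 and LDHA stay between -1.83 and -1.12, SLC2A1, SLC2A3, HK2, ALDOC and NDRG1 stay above 0, and HIF1A moves from -0.53 to 0.00.

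Differences between lines were tested as differences of the changes within tables. Between COLO 201 and RKO, 19 of 30 members passed, beside 38.1% of all 9435 genes tested, and 13 after rescaling, beside 35.3%. For H1975 against RKO 7 of 34 passed, beside 23% of 9674 genes, and 10 after rescaling, beside 25.1%. For H1975 against COLO 201 21 of 33 passed, beside 38.6% of 10823 genes, and 21 after rescaling, beside 44%. With the variance of each line in place of a joint one, 16 of 30 passed for COLO 201 against RKO, beside 34.9%. In that run 7 of 34 passed for H1975 against RKO, beside 24.1%, and 21 of 33 for H1975 against COLO 201, beside 40.1%. Members with opposite calls in COLO 201 and H1975 were ALDOA, GAPDH, PFKFB4, SLC16A3, ANKRD37 and P4HA1, each higher in COLO 201. Rescaled, GAPDH was no longer among them and GPI and ENO2 were. The only such pair between RKO and H1975 was NDRG1, higher in RKO, joined by SLC2A1 on rescaling. GPI had the smallest adjusted p for H1975 against COLO 201, with a difference of -0.60 ± 0.06 (adjusted p = 1.9e-06). HIF1A rose more in COLO 201 than it changed in H1975, with a difference of -0.65 (adjusted p = 3.6e-05). CA9 differed by -0.84 (adjusted p = 5.8e-05). HK2 did not pass in any pair, with differences of 0.19, 0.02 and -0.17 and adjusted p between 0.081 and 0.94. LDHA did not pass between H1975 and COLO 201 (-0.14 ± 0.07, adjusted p = 0.13).

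Other genes of the pathways were counted from lists, whose counts are to be read beside the shares of all genes called. As deposited these were 45.9% higher and 15% lower in COLO 201, 23.9% and 14.6% in H1975, and 2.09% and 16.1% in RKO. Rescaled they were 27.3% and 29.7%, 21.2% and 18.5%, and 13.8% and 14%, and 29.1% and 29.8% for RKO without vehicle column 1. Counts at an unadjusted limma p under 0.05 stand beside 7452 of 11566 genes in COLO 201, 5957 of 12359 in H1975 and 3608 of 10551 in RKO. Those totals are for either direction, as deposited. MYC, which drives LDHA and other glycolytic genes, rose in all 3 lines, by 0.67 in RKO (adjusted p = 0.043), 0.50 in COLO 201 (adjusted p = 5.3e-07) and 0.61 in H1975 (adjusted p = 1.1e-05). Its H1975 columns read 343, 352 and 390 TPM against 540, 549 and 569 TPM. PDP1, the phosphatase that activates pyruvate dehydrogenase, also rose in all 3, by 0.62, 0.60 and 0.46 (adjusted p = 0.045, 7.7e-06 and 0.00044). DDIT4, an mTORC1 inhibitor that HIF induces, fell by 1.29, 0.98 and 0.67. In RKO its first vehicle column was at 56.5 TPM and the others at 14 and 13.3 TPM, and that call was lost on rescaling (-1.02, adjusted p = 0.22).

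Of 40 further HIF targets, 4 of the 34 tested in H1975 rose and 15 fell, with LOXL2 at -0.74, PPP1R3C at -0.80 and VEGFA, the angiogenic growth factor, at -0.25. COLO 201 had 14 higher and 8 lower of 31, with SLC2A12 at 0.95, CAV1 at -1.45 and CXCR4 at -0.69. RKO had 1 higher and 5 lower of 32, with BHLHE40 at 1.39 and TFRC at -1.26. Their medians were -0.11 in H1975, 0.06 in COLO 201 and -0.28 in RKO. Rescaled, the counts were 4 higher and 17 lower in H1975, 11 and 12 in COLO 201, and 5 and 2 in RKO, where they were 12 and 7 of 28 with a median of 0.06 without vehicle column 1. Among 13 HIF pathway factors, 4 rose and 2 fell in COLO 201, where ARNT2, a HIF partner, fell by 1.38 and ARNT rose by 0.34. In H1975 limma called 0 of 11 (1 at an unadjusted p under 0.05), and in RKO 2 of 11 fell. Rescaled, 3 rose and 4 fell in COLO 201, 1 fell in H1975, and 1 rose and 1 fell in RKO, or 3 and 4 without vehicle column 1. CITED2, which limits HIF binding to its coactivator, was at 26.5 TPM in that column and at 3.69 and 3.33 TPM in the other RKO vehicle columns.

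The pyruvate dehydrogenase list gave 5 higher and 0 lower of 10 in COLO 201 (6 and 0 at an unadjusted p under 0.05), 3 and 2 of 10 in H1975, and 1 and 0 of 9 in RKO. Rescaled, these were 4 and 2, 3 and 3, and 3 and 0, or 4 and 1 for RKO without vehicle column 1. In H1975 the inhibitory kinase PDK4 fell by 0.41. The mitochondrial pyruvate carrier genes MPC1 and MPC2 rose in COLO 201 (0.36 and 0.30) and H1975 (0.55 and 0.29), within a list of 8 where 4 rose and 1 fell of 7 tested in COLO 201 and 3 rose and 1 fell of 6 in H1975. In RKO limma called 0 of the 4 tested, and 0 at an unadjusted p under 0.05. Rescaled, 4 rose and 2 fell in COLO 201, 3 rose and 2 fell in H1975, and 1 rose in RKO, or 2 without vehicle column 1. Of 10 glycolysis regulators, 4 rose and 1 fell of 8 tested in COLO 201, 3 rose and 2 fell of 9 in H1975, and 1 (MYC) rose among 6 in RKO. Rescaled, 4 rose and 4 fell in COLO 201, 3 rose and 2 fell in H1975, and 2 rose in RKO, or 4 of 5 without vehicle column 1. PFKFB2 rose in COLO 201 (0.30) and H1975 (0.66). Of 12 tissue-restricted isoforms, few reached 1 TPM: HKDC1 fell by 0.41 and ENO3 rose by 0.39 in COLO 201, and LDHC rose by 0.25 in H1975.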

How the data were processed

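TPM were deposited by the authors as one table per line with 6 columns, per the file headers. The submitters' processing notes list STAR, DESeq2 and GRCh38, without versions or roles. TPM keep no read totals, so the depth is unknown. Libraries were TruSeq Stranded mRNA, per the labels' protocols. Columns were grouped by line, with arms taken from the headings. Date-like names in COLO 201 (28 entries, up to 0.0684% of TPM) were dropped.

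Genes with a mean of at least 1 TPM in a line were tested with limma 3.58.1 (R 4.3.3) on log2(TPM + 1), two-sided, with a variance trend and Benjamini-Hochberg adjustment over all genes tested, checked on simulated data. Fold changes on this scale understate the change of low genes. Differences between lines came from a joint fit per pair. Positions are from GENCODE 29. The members and lists were chosen with earlier results of these data known. Named in full are, per line and group, the 6 members with the smallest adjusted p, members called in every line or in opposite directions, and up to 6 line differences per pair; all other members are named at least once, and other lists give up to 3 called genes per line. HIF1A, CA9, HK2 and LDHA among the line differences were named after their values were seen.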

Additional observations from a re-analysis of the deposited data

Results flagged for a closer look

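For 18 differences between lines the change itself differed in a joint limma fit (adjusted p under 0.05, up to 6 for each pair of lines). The number 18 is set by that limit. Members that passed numbered 19 of 30 for COLO 201 against RKO, beside 38.1% of all genes tested. They numbered 7 of 34 for H1975 against RKO, beside 23%, and 21 of 33 for H1975 against COLO 201, beside 38.6%. Each value is the change in the first line minus that in the second, on the log2(TPM + 1) scale. For COLO 201 against RKO the differences were 1.14 for GPI, 1.02 for PGAM1, 0.885 for ALDOA, 1.16 for HIF1A, 0.792 for GAPDH and 0.837 for TPI1. Rescaled and without RKO vehicle column 1, these became 0.73, 0.57, 0.46, 0.50, 0.34 and 0.38. For H1975 against RKO they were -0.913 for NDRG1, -0.824 for SLC2A1, 0.72 for PGAM1, 0.711 for PFKP, 0.727 for LDHA and 0.658 for ENO1. Without that column and rescaled, NDRG1 was at -1.18, SLC2A1 at -1.02, PGAM1 at 0.37, PFKP at 0.33, LDHA at 0.24 (limma adjusted p = 0.018) and ENO1 at 0.15 (adjusted p = 0.13). For H1975 against COLO 201 they were -0.6 for GPI, -0.916 for ALDOC, -0.924 for PFKFB4, -0.682 for P4HA1, -0.724 for SLC16A3 and -0.606 for ALDOA. Rescaled, these 6 lay between -0.87 and -0.51.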

How the results depend on the processing

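Counts of called members in COLO 201 and H1975 stayed within 1.5 times under every alternative run, except the HIF members lower in COLO 201, at 1 as deposited, 3 rescaled and 2 with small noncoding or mitochondrial genes removed, and the enzymes lower in H1975, at 5, or 8 with those genes removed. RKO moved more. HIF members higher were 1, or 0 with no minimum TPM, 2 rescaled, 2 without small noncoding genes, 4 rescaled without vehicle column 1, and 0 to 1 with single columns left out. HIF members lower were 0, or 1 with a pseudocount of 0.1, with a minimum of 5 TPM and with the replicate block, and 0 to 3 with single columns left out. Glucose members higher were 2, or 1 with a pseudocount of 5 or no trend, 0 with no minimum TPM, 5 rescaled, 4 without small noncoding genes, 4 with the replicate block, 9 rescaled without vehicle column 1, and 0 to 2 with single columns left out. Glucose members lower were 7, or 4 with a pseudocount of 5, 1 with no minimum TPM, and 2 to 10 with single columns left out. With no minimum TPM, PGAM1 and LDHA were thus not both called lower in RKO. Shares of all RKO genes moved too, and the member counts are to be read beside them. Lower were 16.1% as deposited, 12.1% with a pseudocount of 5 and 0.0873% with no minimum TPM. With single columns left out the share lower was 4.48% to 21.8%, and the share higher 0.951% to 2.44%. Higher were 2.09% as deposited, 0.0655% with no minimum TPM, 13.8% rescaled, 10.1% without small noncoding genes and 29.1% rescaled without vehicle column 1. Differences for H1975 against RKO numbered 7 of 34, beside 23% of all genes, or 18 of 33, beside 43.7%, rescaled without vehicle column 1, an alternative chosen after seeing the data. Reversed were HK1 in RKO (0.22 rescaled, 0.25 also without vehicle column 1), SLC16A1 (0.15), BNIP3L (0.18) and P4HA1 (0.14) in RKO rescaled without vehicle column 1, and KDM3A in COLO 201 (-0.12 rescaled). Over all single-gene values, with MUC1 and single-gene differences between lines included, 1531 alternative values kept their side of the threshold. Of these, 50 that were not called under either setting changed sign. A further 67 lost a call and 49 gained one. The cause was not tested. Correlations of same-numbered columns were -0.01 to 0.29 (RKO), -0.05 to 0.28 (COLO 201) and -0.42 to 0.16 (H1975). So few columns cannot show whether the numbers pair them, and the replicate block was used only here. With the block, all genes called higher and lower went from 220 and 1695 to 344 and 2071 in RKO. They went from 5312 and 1740 to 5744 and 2015 in COLO 201, and from 2959 and 1800 to 2209 and 1529 in H1975. Precision is limited by 3 columns a group and unknown depth.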
